A study of Mus musculus with 4 samples.

Results

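The cytosolic ribosome is built from ribosomal RNA and a fixed set of ribosomal proteins, each usually encoded by a single active gene. The genes named Rpl encode proteins of the large subunit, which holds the peptidyl transferase centre, and those named Rps encode proteins of the small subunit, which reads the mRNA. They are expressed in nearly every cell, their transcription often starts within a pyrimidine tract, and many of them carry snoRNA genes in their introns. Here they served as a housekeeping contrast to the muscle genes on which Pax7, a paired-box and homeodomain transcription factor of muscle stem cells, is known to act. The genes were chosen by name, with earlier results of these data known. They are autosomal protein-coding genes of GENCODE vM1 (genome build NCBIM37, mm9). Their symbol is Rpl or Rps and a number, with an a, x or l at the end where present. This rule gave 72 genes, of which 42 were Rpl and 30 were Rps, among 21418 autosomal coding genes. Of the 20579 Pax7 peaks in the list, 27 had their summit within 1 kb of the transcription start site (TSS) of such a gene (promoter peaks). A further 92 peaks had their summit 1 to 50 kb from such a TSS (distal peaks).

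The peaks came from ChIP-seq of iPax7 cells, mouse embryonic stem cells with a Pax7 transgene that doxycycline (Dox) switches on. The cells were differentiated as embryoid bodies in serum, sorted as PDGFRα+FLK1- cells and grown to day 9, with Dox at 1 µg/ml for the last 6 days. Libraries were made from 2 Pax7 ChIP and 2 Input samples, all of this Dox-treated condition, and no cells without Dox were analysed here. Pax7 was therefore measured at the level that the transgene gave and not at that of the endogenous gene. The authors called the peaks on the merged libraries, so a peak has no replicate error, no test was made, and shares of genes or peaks carry a 95% Wilson interval that covers counting error only. The list gives no read counts, so the depth behind a peak is unknown. Fold enrichment is the value the authors' peak caller gave for ChIP over local background at the summit, and −log10 q is its adjusted significance, of which the lowest in the list was 2.07. Because these cells are described here only by a list of peaks, neither their muscle identity nor the RNA levels of the ribosomal protein genes could be checked.

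A Pax7 summit lay within 1 kb of the TSS of 24 of the 72 ribosomal protein genes, or 33.3% (23.5 to 44.8%). Over all autosomal coding genes the share was 12.1%, from 2600 of 21418, and over the 8439 coding genes with a CpG-rich promoter it was 20.3%. A promoter was counted as CpG-rich when the 1 kb around the TSS had at least 55% GC and a ratio of observed to expected CpG of at least 0.6. Ribosomal protein genes met this more often than other genes, at 72.2% against 39.4% of all coding genes. Among them, however, 18 of 52 CpG-rich genes (34.6%) and 6 of 20 other genes (30%) had a promoter summit, while coding genes without a CpG-rich promoter had one in 6.81%. Large-subunit genes had a promoter summit in 16 of 42 cases, or 38.1% (25 to 53.2%), and small-subunit genes in 8 of 30, or 26.7% (14.2 to 44.4%). These intervals overlap widely.

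Among the 24 genes with a promoter summit were Rpl3, Rpl4, Rpl7, Rpl9, Rpl10a, Rpl14, Rpl15, Rpl19, Rpl23, Rpl23a, Rpl27, Rpl27a, Rpl31, Rpl34, Rpl35a and Rpl38 of the large subunit and Rps3, Rps7, Rps15a, Rps19, Rps25 and Rps27a of the small subunit. Rpl9, Rpl19 and Rpl23a had 2 promoter peaks each and the others 1. The 4 genes whose symbol ends in l encode paralogues with narrow tissue expression or uncertain roles, and none of them had a promoter summit. They are Rpl3l, the striated muscle counterpart of Rpl3, Rpl10l and Rpl39l, which are known from testis, and Rps27l. Rpl3l and Rps27l each had 1 distal summit, while Rpl10l and Rpl39l had none.

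The promoter peaks are shown first as sequence, because the letters under their summits are what Pax7 and the usual regulators of ribosomal protein promoters would read. All stretches are from NCBIM37, run 5′ to 3′ on the strand of the named gene, lie within 60 bp of the summit and were trimmed where an annotated exon begins. Capitals mark, on either strand, the paired-box core GTCACG, the ETS motif CCGGAAG or the YY1 motif AANATGGC. The core was present within 50 bp of the summit in 4 promoter peaks, at Rpl23 (chr11:97644309-97644429, minus strand), Rpl9 (chr5:65782683-65782735, minus strand), Rpl27a (chr7:116662586-116662660, plus strand) and Rps25 (chr9:44215632-44215714, plus strand).
Rpl23: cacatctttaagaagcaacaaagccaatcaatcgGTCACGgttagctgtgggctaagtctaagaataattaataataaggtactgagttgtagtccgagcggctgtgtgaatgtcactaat
Rpl9: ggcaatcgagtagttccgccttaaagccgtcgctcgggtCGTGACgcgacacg
Rpl27a: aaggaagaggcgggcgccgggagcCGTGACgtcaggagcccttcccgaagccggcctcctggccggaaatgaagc
Rps25: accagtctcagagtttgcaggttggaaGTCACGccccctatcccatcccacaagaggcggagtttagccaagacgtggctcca
The next 4 stretches have no core in the bases shown. Rps19 (chr7:25669244-25669364, plus strand), Rps7 (chr12:29320819-29320928, minus strand) and Rpl27 (chr11:101303477-101303597, plus strand) belong to the peaks ranked just below the highest in fold enrichment, and Rpl34 (chr3:130433317-130433415, minus strand) carries the YY1 motif. The ETS motif is in the Rps7 stretch.
Rps19: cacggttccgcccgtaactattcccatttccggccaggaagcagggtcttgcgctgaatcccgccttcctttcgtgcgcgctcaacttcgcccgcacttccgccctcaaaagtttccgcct
Rps7: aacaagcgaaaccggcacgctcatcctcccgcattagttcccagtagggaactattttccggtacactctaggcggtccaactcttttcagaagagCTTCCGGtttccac
Rpl27: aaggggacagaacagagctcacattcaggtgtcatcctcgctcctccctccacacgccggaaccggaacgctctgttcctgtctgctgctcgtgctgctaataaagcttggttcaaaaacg
Rpl34: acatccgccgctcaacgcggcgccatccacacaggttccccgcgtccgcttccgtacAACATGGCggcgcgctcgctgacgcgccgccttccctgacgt

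The peak with the highest fold enrichment at a ribosomal protein promoter lay 468 bp upstream of Rpl9 (9.59-fold, −log10 q 40.8). Its summit fell in a noncoding exon of Lias, the lipoic acid synthase gene that starts on the other side of the shared promoter, and was nearer to the Lias TSS (414 bp) than to that of Rpl9. The second Rpl9 peak was 47 bp upstream, with 5.41-fold enrichment, and its summit was 7 bp from the Lias TSS. Rpl9 was thus the member with the strongest promoter peak, but both of its peaks were closer to its neighbour.

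In the small subunit, Rps19, a gene mutated in Diamond-Blackfan anaemia, had a peak 86 bp upstream of its TSS (7.95-fold, −log10 q 29.0). The Rps7 peak was of much the same strength, 7.89-fold at 50 bp upstream (−log10 q 36.2). Rps15a had 6.37-fold enrichment at 63 bp upstream. These 3 summits lay in the sequence just before the start of transcription and outside any annotated exon. Rps27a, which encodes ubiquitin fused to a ribosomal protein, differed in that its summit (6.43-fold) was in a UTR of the gene itself, 192 bp downstream of its TSS and 33 bp from the TSS of 1700034F02Rik. Rps3 (3.70-fold, 84 bp upstream) and Rps25 (3.24-fold, 143 bp upstream) had the lowest values of the subunit. The Rps25 summit was 23 bp from the TSS of Trappc4, a subunit gene of a vesicle tethering complex.

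In the large subunit, Rpl27 (6.84-fold, 75 bp upstream) and Rpl38 (6.72-fold, 17 bp upstream) followed Rpl9. Rpl38 is known from mouse mutants with defects of the axial skeleton. Rpl14 (5.95-fold, 96 bp upstream) and Rpl3 (5.52-fold, 38 bp upstream) also had summits close to the start. Rpl3 is known as a protein that reaches close to the peptidyl transferase centre. A group of summits lay further out in the upstream sequence, at 618 bp for Rpl23 (5.55-fold), 456 bp for Rpl15 (5.23-fold), 418 bp for Rpl19 (4.90-fold) and 350 bp for Rpl7 (5.23-fold). The Rpl15 summit was in an intron of Nkiras1 and that of Rpl19 in an intron of Gm11629. Rpl19 had a second peak 165 bp downstream in its own intron, which at 2.97-fold (−log10 q 4.78) was the lowest of all promoter peaks in fold enrichment. Rpl23a had peaks at 8 bp (4.38-fold) and 376 bp (4.35-fold) downstream, in a UTR and an intron of the gene.

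The other large-subunit promoter peaks were weaker than 5-fold. Rpl10a was 4.51-fold enriched at 26 bp downstream, Rpl27a 4.44-fold at 15 bp upstream and Rpl35a 4.25-fold at 213 bp upstream, where the summit was 22 bp from the TSS of Iqcg. Rpl34 was 4.08-fold enriched at 39 bp upstream, Rpl31 3.84-fold at 67 bp downstream and Rpl4 3.63-fold at 5 bp upstream. By annotation, 16 of the 27 promoter summits were intergenic, 5 were in a UTR, 5 in an intron and 1 in a noncoding exon. For 5 of the 27, at Rpl9, Rps27a, Rpl35a and Rps25, the nearest coding TSS was that of another gene.

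**Figure D1:**
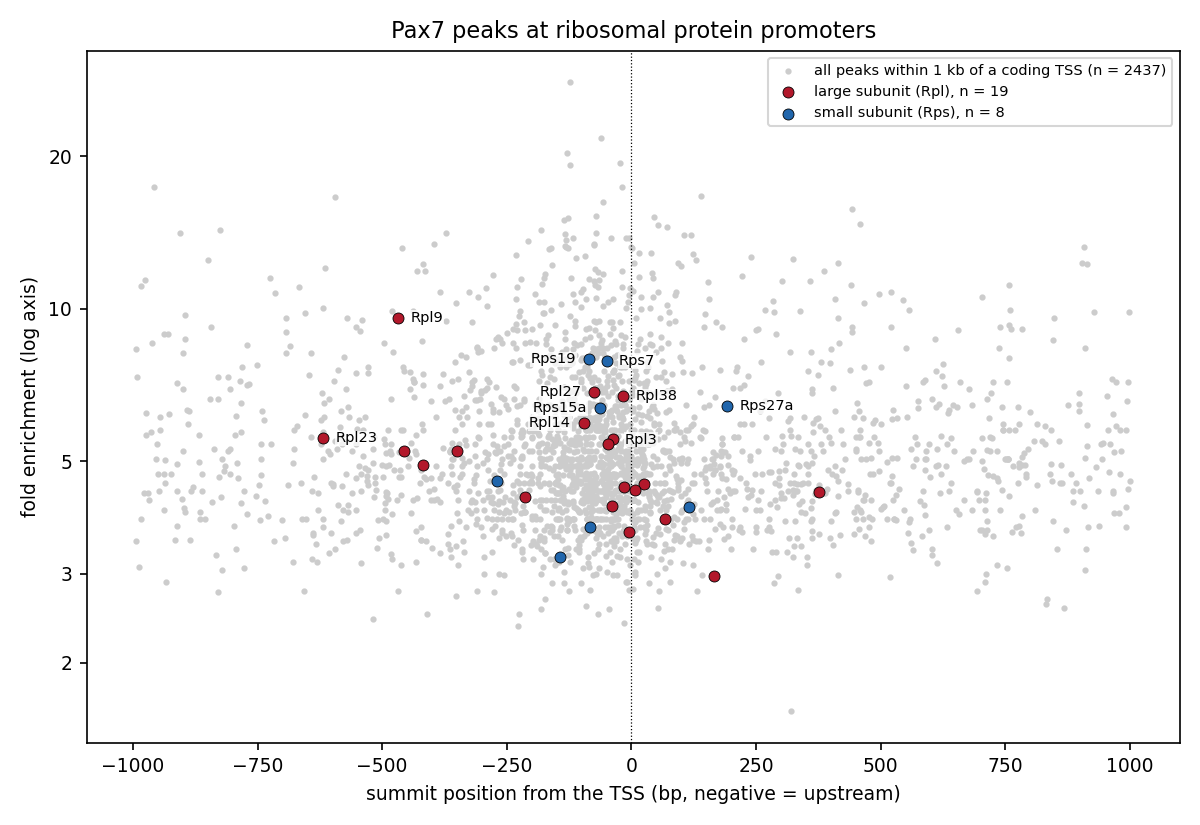
Fold enrichment (log axis) of Pax7 peaks against the position of the summit from the TSS in bp, with the 19 promoter peaks of Rpl genes in red, the 8 of Rps genes in blue and all 2437 peaks within 1 kb of a coding TSS in grey, placed by their nearest TSS. The ribosomal protein peaks range from 2.97-fold to 9.59-fold, inside the cloud of other promoter peaks and none at 10-fold or above, with 15 of 27 summits within 100 bp of the TSS.

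As a set, the promoter peaks of ribosomal protein genes had the strength of other promoter peaks and not more. Their median fold enrichment was 4.90 (range 2.97 to 9.59), against 4.96 for all 2437 peaks within 1 kb of a coding TSS, and their median −log10 q was 10.2 in both sets. At least 5-fold enrichment was reached by 13 of 27 of them and by 49.3% of all promoter peaks. No ribosomal protein promoter peak reached 10-fold, a value that 139 of the 2437 did. Median peak width was 245 bp, against 249 bp.

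The summits were placed close to the start of transcription. The median distance from the TSS was 86 bp, and 15 of 27 (55.6%) lay within 100 bp and 20 of 27 (74.1%) upstream. Over all promoter peaks, measured to the nearest coding TSS, the median was 164 bp, with 35.8% within 100 bp and 62.9% upstream. Counted per gene, 20.8% of ribosomal protein genes (13.1 to 31.6%) had a summit within 100 bp of the TSS, compared with 4.30% of all coding genes and 6.90% of those with a CpG-rich promoter. Beyond this, between 500 bp and 1 kb, the share of ribosomal protein genes was 1.39% (Rpl23 alone) and that of all coding genes 2.62%. At the 1 kb limit, the nearest summit inside was that of Rpl23 at 618 bp, and the nearest outside was a peak 1009 bp upstream of Rpl27a with 5.56-fold enrichment. For the 50 kb limit, the nearest summits outside were 50922 bp from Rpl23 (5.56-fold) and 51349 bp from Rps3 (6.94-fold).

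**Figure D2:**
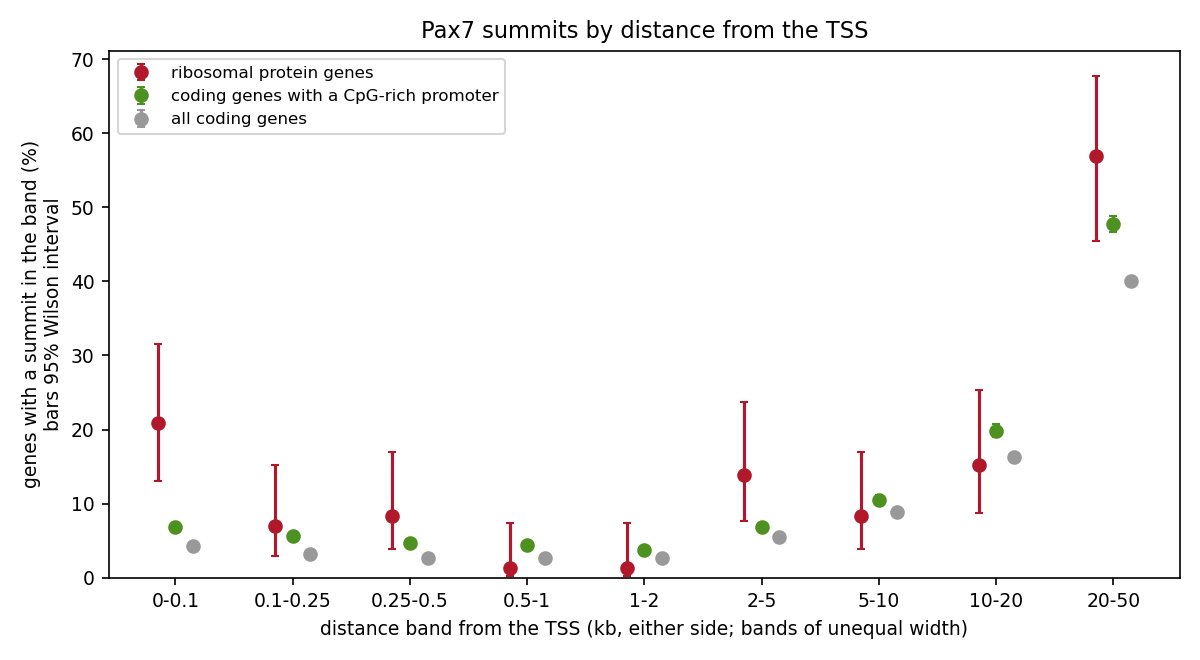
Percent of genes with at least 1 Pax7 summit in each band of distance from the TSS (kb, both sides counted, bands of unequal width), for ribosomal protein genes (red), coding genes with a CpG-rich promoter (green) and all coding genes (grey), with 95% Wilson intervals as bars. The ribosomal protein genes lie above all coding genes in the band nearest the TSS (20.8% against 4.30%), at 2 to 5 kb (13.9% against 5.57%) and at 20 to 50 kb (56.9% against 40.0%), and close to them at 5 to 10 kb (8.33% against 8.82%).

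The position of a TSS is itself a choice of the annotation. With the TSS of any coding transcript in place of the gene's 5′ end, 36.1% of ribosomal protein genes had a summit within 1 kb. This compared with 13.6% of all coding genes, and the members added were Rpl13a and Rpl18. The Rpl13a peak (8.00-fold) was 286 bp from a TSS that lies 7669 bp inside the gene, and the Rpl18 peak (4.00-fold) was 82 bp from a TSS 2614 bp inside. Only reads that map to a single place were kept by the authors, and ribosomal protein genes have many processed pseudogenes elsewhere in the genome. Within 1 kb of their TSS, a median of 95.3% of 50-base words occurred once in the genome, against 100% for all coding genes. The share was lower downstream of the TSS (median 94.6%), where exons begin, than upstream (99%). Genes with a promoter summit (median 95.5%, range 87.6 to 100%) and without (median 95.3%, range 80.1 to 100%) had similar values. Among the genes under 90%, 2 had a promoter summit (Rpl27 and Rpl38) and 7 did not. A further 55 names of ribosomal protein pseudogenes (symbols with -ps) that this annotation lists as coding had no summit within 1 kb, which allows a share of up to 6.53%, and a median unique share of 82.1%.

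Neighbouring genes also differed among the members. Another coding TSS lay within 1 kb of 13 of the 72 genes (18.1%, against 12.3% of all coding genes), and 6 of these 13 (46.2%, 23.2 to 70.9%) had a promoter summit, compared with 24.1% of coding genes with such a neighbour. Of the 59 without such a neighbour, 18 (30.5%) had a promoter summit, compared with 10.5% of coding genes without a neighbour. Genes that host a snoRNA had a promoter summit in 7 of 26 cases (26.9%, 13.7 to 46.1%) and the others in 17 of 46 (37.0%, 24.5 to 51.4%). By chromosome, 6 of the 7 members on chromosome 11 had a promoter summit, 5 of the 13 on chromosome 7, 1 of the 7 on chromosome 17 and none of the 4 on chromosome 2. The share over all coding genes was not counted by chromosome, so these small counts have no background. The part of neighbours, sequence uniqueness and base composition in these counts was not tested.

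In 4 other groups of housekeeping genes, a promoter summit was present in 29.3 to 48.4% of the members. Of 77 mitochondrial ribosomal protein genes, 28 (36.4%, 26.5 to 47.5%) had a promoter summit, led by Mrps15 (12.9-fold), Mrpl50 (10.5-fold) and Mrpl18 (9.20-fold). Of 31 translation factors 10 did (32.3%, 18.6 to 49.9%), with the highest values at the initiation factor 3 subunit genes Eif3f (12.2-fold), Eif3h (7.75-fold) and Eif3d (6.57-fold). Ribosome biogenesis genes, which encode nucleolar factors and RNA polymerase I subunits, had one in 15 of 31 cases (48.4%, 32.0 to 65.2%), the highest share of the groups. Nip7 (7.32-fold), Rrp1 (6.48-fold) and Polr1d (6.44-fold) led them. Proteasome subunit genes, a housekeeping complex without a link to the ribosome, had one in 12 of 41 (29.3%, 17.6 to 44.5%), with Psmc6 at 8.54-fold, Psmd5 at 6.68-fold and Psmb4 at 6.40-fold.

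Of the 10 cytosolic ribosomal protein genes outside the naming rule, such as Rplp0, Rpsa and Fau, 1 had a promoter summit (10%, 1.79 to 40.4%). The share of all coding genes was 12.1%. This gene was Gnb2l1 (the Rack1 gene), with a summit 953 bp downstream of its TSS and 6.72-fold enriched. Among the 8 genes for kinases named after ribosomal protein S6, 3 (37.5%, 13.7 to 69.4%) had a promoter summit. They were Rps6ka5 (10.3-fold), Rps6kb1 (4.19-fold) and Rps6ka2 (4.16-fold). For a list of 29 muscle regulators, 9 (31.0%, 17.3 to 49.2%) had a promoter summit. These included Id3 (13.2-fold), Myf5 (6.32-fold) and Myog (4.56-fold). The interval of the ribosomal protein genes and that of the muscle regulators each held the share of the other.

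**Figure D3:**
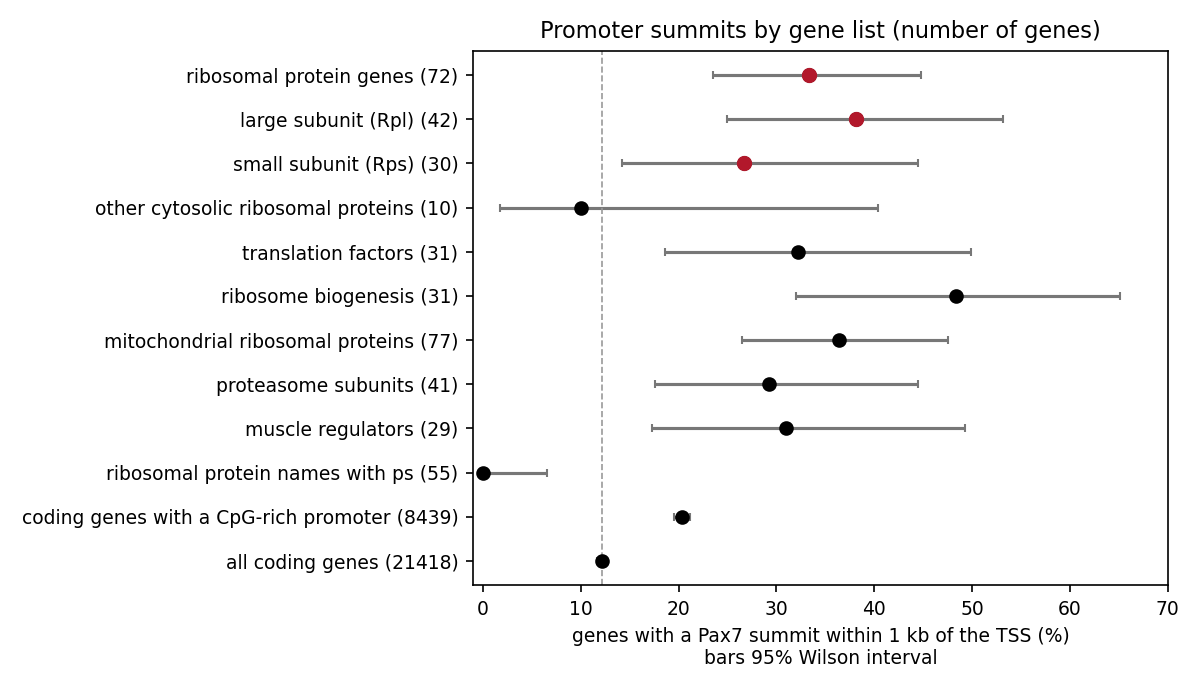
Percent of genes with a Pax7 summit within 1 kb of the TSS for each gene group, with the number of genes in parentheses, points for the share and bars for its 95% Wilson interval, and the dashed line at the 12.1% of all coding genes. Ribosomal protein genes (red) sit at 33.3%, within the range of the translation, mitochondrial ribosome, proteasome and muscle groups, and the names with ps at 0.

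Peaks 1 to 50 kb from the TSS were found at 51 of the 72 ribosomal protein genes (70.8%, 59.5 to 80.1%), compared with 52.8% of all coding genes and 63.3% of those with a CpG-rich promoter. There were 94 pairs of a gene and a summit, or 1.31 per gene with a median of 1 and a maximum of 4, against a mean of 1.01 over all coding genes and 1.22 over CpG-rich ones. The 29 muscle regulators had a mean of 2.10 and a distal summit at 24 of 29 genes (82.8%). The distal peaks numbered 92 because 2 of them, such as the one shared by Rps2 and Rpl3l, were each counted for a pair of genes. A total of 4 distal summits was reached by 8 genes, namely Rpl12, Rpl14, Rpl17, Rpl18, Rpl23, Rpl35a, Rps16 and Rps18. Exactly 4 were counted at 11.1% of ribosomal protein genes, 3.21% of all coding genes and 3.95% of CpG-rich ones. No ribosomal protein gene had 5 or more, which 2.20% of all coding genes and 2.63% of CpG-rich ones did.

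The genes were also counted by whether they had both kinds of summit. Of the 24 genes with a promoter summit, 20 also had a distal one, with a mean of 1.38 per gene, and of the 48 without, 31 did, with a mean of 1.27. Over all 21418 autosomal coding genes, 1740 of the 2600 with a promoter summit also had a distal one. A further 9569 had only a distal summit, and 9249 had neither. Over the 8439 CpG-rich genes, 1137 of the 1716 with a promoter summit also had a distal one, and 2522 had neither. The 17 genes with no summit within 50 kb included Rpl5, Rpl6, Rpl10l, Rpl24, Rpl30, Rpl32, Rpl37, Rpl39l, Rps3a, Rps12, Rps13, Rps14, Rps21, Rps24, Rps27 and Rps28. Rpl5 carries 5S ribosomal RNA into the ribosome. Of the 17, 11 have a CpG-rich promoter.

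Most distal peaks were nearer to another gene. In 12 of the 94 pairs, at 10 genes, the ribosomal protein gene had the nearest coding TSS, and 38 of the 92 distal peaks lay within 1 kb of another coding TSS. Ribosomal protein genes had a median of 3 other coding TSSs within 50 kb (mean 3.36), against 2 for all coding genes (mean 2.20). When a summit was counted only for its nearest coding gene, the order turned, with a mean of 0.167 for ribosomal protein genes and 0.409 for all coding genes. When summits within 1 kb of another coding TSS were left out, the means were 0.764 and 0.771. The excess of distal summits over all coding genes was not seen in either of these counts.

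**Figure D4:**
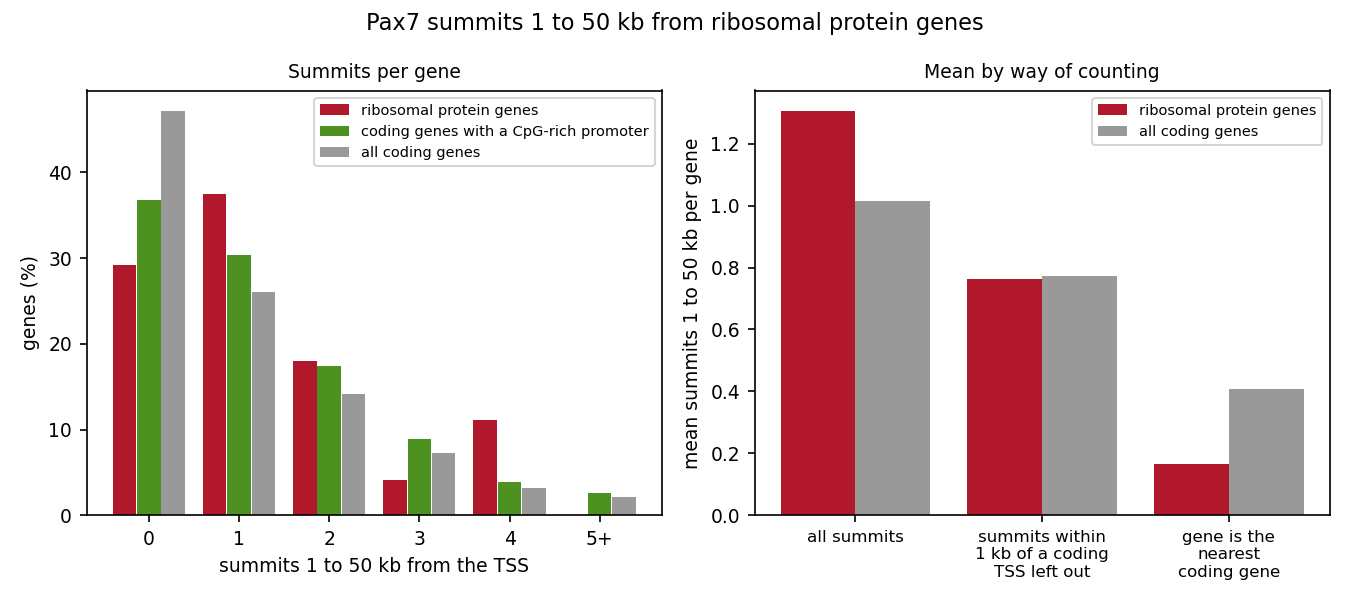
Left, percent of genes by the number of Pax7 summits 1 to 50 kb from the TSS, for ribosomal protein genes (red), coding genes with a CpG-rich promoter (green) and all coding genes (grey). Right, mean number of such summits per gene in 3 ways of counting, where ribosomal protein genes exceed all coding genes with all summits (1.31 and 1.01), are level with them without summits near another TSS (0.764 and 0.771) and are below them when only the nearest gene is credited (0.167 and 0.409).

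The distal peaks with the highest fold enrichment were of this kind. The highest (12.3-fold, −log10 q 52.2) was 24.3 kb upstream of Rpl13 in an intron of Spg7, the gene of a mitochondrial protease. The next (12.0-fold, −log10 q 60.9) was 39.6 kb upstream of Rpl21 in an intron of Usp12, 1751 bp from the Usp12 TSS. A peak 15.7 kb downstream of Rps18 (11.5-fold) was in a UTR of H2-Ke2 and 44 bp from its TSS. The peak 10.6 kb upstream of Rpl18 (11.0-fold) was 230 bp from the TSS of Dbp, a circadian transcription factor gene. The fifth, 38.4 kb upstream of Rps9 (10.4-fold), was in a UTR of Leng1. These 5 peaks, the only distal ones at or above 10-fold, all had another gene as their nearest coding TSS.

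Of the next 5, the summit 33.0 kb downstream of Rpl19 (9.82-fold) was intergenic, 6245 bp from the TSS of Stac2. Rpl7a, which lies in the Surfeit cluster of closely packed housekeeping genes, had a peak 6.32 kb downstream (9.18-fold) in an exon of Surf2 and a peak 7.80 kb upstream (9.15-fold) 86 bp from the TSS of Surf6. The peak 28.4 kb upstream of Rps25 (9.11-fold) was 199 bp from the TSS of Hyou1, an endoplasmic reticulum chaperone gene, and the peak 38.0 kb upstream of Rps29 (9.07-fold) was in a coding exon of 1110034A24Rik. By annotation, 41 of the 92 distal summits were intergenic, 34 intronic, 11 in a UTR, 4 in a noncoding exon and 2 in a coding exon. Their median fold enrichment was 5.23 (range 2.69 to 12.3). In the 54 over 1 kb from any coding TSS it was 5.29, against 5.23 for all autosomal peaks so placed. In the 38 within 1 kb of another coding TSS it was 5.01, against 4.96 for all peaks within 1 kb of a coding TSS.

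Between 2 and 5 kb from the TSS, where 13.9% of ribosomal protein genes (7.72 to 23.7%) and 5.57% of all coding genes had a summit, the members included Rpl8, Rpl12, Rpl18, Rpl19, Rpl35, Rpl36, Rps18, Rps20 and Rps23. Several of these summits lay at the start of a neighbour, such as Commd5 (4 bp) for Rpl8, Arpc5l (65 bp) for Rpl35, Sphk2 (13 bp) for Rpl18 and B3galt4 (2 bp) for Rps18. The summit 3.11 kb downstream of the Rps20 TSS (4.35-fold) was in a UTR of Rps20.

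The 12 distal summits with the ribosomal protein gene as nearest coding TSS are the ones that distance alone would give to these genes. The strongest was 4.93 kb downstream of Rpl19 (8.96-fold), followed by a summit 19.6 kb downstream of Rps6 in an intron of Dennd4c (8.19-fold) and one 4.84 kb downstream of Rps23 (8.16-fold). Rps6 encodes the ribosomal protein that S6 kinases phosphorylate, and a second peak was 21.6 kb downstream of it (6.79-fold). The others included summits near Rpl12, Rpl26, Rpl27a, Rpl31, Rpl37a and Rps20, of which that of Rpl26 was the lowest at 3.07-fold. The paired-box core was within 50 bp of the summit in 5 of the 12, at Rpl19, Rps6, Rps23, Rpl31 and Rpl27a. Its share was 31.5% in the 54 distal peaks over 1 kb from any coding TSS. Over all autosomal peaks so placed it was 9.99%.

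The distal stretches are shown for the strongest peak, near Rpl13 (chr8:125601921-125602041), and for the first 3 with the ribosomal protein gene as nearest, Rpl19 (chr11:97892895-97893015), Rps6 (chr4:86483662-86483782) and Rps23 (chr13:91067504-91067624). They are from NCBIM37, on the plus strand except for Rps6 (minus strand), reach 60 bp to either side of the summit, and have the core in capitals. All 4 hold GTCACG or its reverse complement, but only 21 of the 92 distal peaks had the core within 50 bp of the summit. The peaks near Rpl21 and Rps18, next in fold enrichment after that of Rpl13, had none there.
Rpl13: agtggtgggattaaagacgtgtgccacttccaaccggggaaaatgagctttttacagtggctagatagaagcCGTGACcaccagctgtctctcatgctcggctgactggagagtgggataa
Rpl19: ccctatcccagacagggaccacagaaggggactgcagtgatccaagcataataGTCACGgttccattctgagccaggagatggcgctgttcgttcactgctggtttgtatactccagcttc
Rps6: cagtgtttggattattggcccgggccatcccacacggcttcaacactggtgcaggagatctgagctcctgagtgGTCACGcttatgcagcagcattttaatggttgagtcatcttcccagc
Rps23: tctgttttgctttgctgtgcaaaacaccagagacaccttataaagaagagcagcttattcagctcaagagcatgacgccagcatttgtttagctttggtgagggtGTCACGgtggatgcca

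The paired-box core was found within 50 bp of the summit in 4 of 27 promoter peaks of ribosomal protein genes (14.8%, 5.92 to 32.5%). The share was 20.1% over all promoter peaks and 11.2% over all autosomal peaks. The distance of the core from the summit was 7.5 bp at Rps25, 23.5 bp at Rpl23, 33.5 bp at Rpl27a and 35.5 bp at Rpl9. In windows of the same width 500 bp to either side, it was present in 4 of 54 (7.41%), against 2.79% of such windows at all promoter peaks. Distal peaks had the core in 21 of 92 summit windows (22.8%, 15.4 to 32.4%) and in 2 of 184 flanks (1.09%). In the 54 distal peaks over 1 kb from any coding TSS the share was 31.5% (20.7 to 44.7%), compared with 9.99% of all autosomal peaks so placed, and in the 38 near another coding TSS it was 10.5% (4.17 to 24.1%).

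The homeodomain dimer motif, a pair of inverted TAAT sites, was not present within 50 bp of any promoter or distal summit of ribosomal protein genes, a motif that only 0.831% of all Pax7 peaks had there. The ETS motif CCGGAAG was within 50 bp of 2 of the 27 promoter summits (7.41%), that of Rps7 among them, and was there in 7.30% of all promoter peaks. The YY1 motif AANATGGC was also found at 2 (7.41%, 2.06 to 23.4%), Rpl23a and Rpl34, compared with 2.59% of all promoter peaks. Of the distal summits, 10 of 92 (10.9%) had the ETS motif, compared with 1.43% of all peaks. They divided into 8 of the 38 near another coding TSS (21.1%, 11.1 to 36.3%) and 2 of the 54 others (3.70%, 1.02 to 12.5%), and the share was 0.626% of all autosomal peaks over 1 kb from a coding TSS. A match is a description of the letters and not of a bound site.

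The promoter itself, taken as the 250 bases before the TSS to 50 after it, held the paired-box core in 14 of the 72 ribosomal protein genes (19.4%, 12.0 to 30.0%), compared with 9.59% of all coding genes and 15.5% of CpG-rich ones. Among the members, the core was present in 10 of the 24 with a promoter summit (41.7%, 24.5 to 61.2%). It was present in 4 of the 48 without (8.33%, 3.29 to 19.6%), near the 9.59% of all coding genes. Over all coding genes too, the core was commoner with a promoter summit, at 20.8% (541 of 2600). Over CpG-rich coding genes with a promoter summit the share was 23.4%. The 10 genes were Rpl4, Rpl9, Rpl15, Rpl19, Rpl23, Rpl27a, Rpl31, Rpl34, Rps19 and Rps25, and the 4 without a summit were Rpl13, Rpl30, Rps16 and Rps29. In 6 of the 10 a core was inside a Pax7 peak, but in only 3 (Rpl9, Rpl27a and Rps25) was it within 50 bp of the summit. At Rpl15 and Rpl23 the nearest summit was 460.5 and 613.5 bp from it. In 3 of the 14 members with the core (Rps29, Rpl13 and Rpl27a) it overlapped the cAMP response element TGACGTCA. Such an overlap was present in 151 coding promoters in all, while 2053 autosomal coding promoters held the core.

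**Figure D5:**
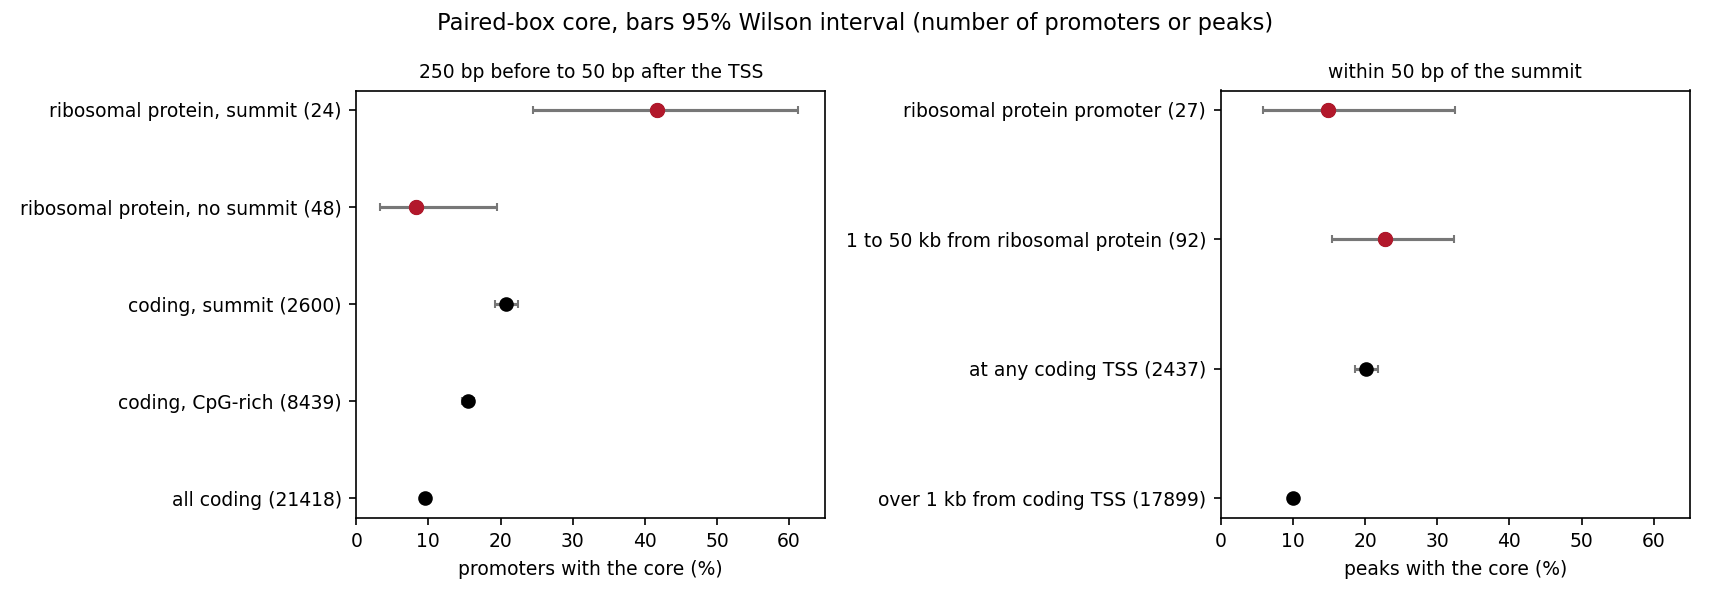
Left, percent of promoters with the paired-box core for ribosomal protein genes with and without a Pax7 summit (red) and for coding genes (black), with the number of promoters in parentheses. Right, percent of peaks with the core within 50 bp of the summit, for ribosomal protein promoter and distal peaks (red) and other peaks (black). Bars are the 95% Wilson interval in both panels. In the left panel, ribosomal protein genes with a summit reach 41.7%, those without 8.33% and all coding genes with a summit 20.8%.

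Motifs known from ribosomal protein promoters were counted in the same promoter stretch. The ETS motif was in 21 of 72 promoters (29.2%, against 10.9% of all coding genes and 18.1% of CpG-rich ones), with 29.2% both in genes with and in genes without a Pax7 summit. A run of at least 8 pyrimidines within 20 bases of the TSS was present in 24 of 72 genes (33.3%, against 16.1% of all coding genes), again with the same share of 33.3% in genes with and without a summit. The YY1 motif was in 8 of 72 promoters (11.1%, against 6.53% of all), in 4 of the 24 genes with a summit (16.7%, 6.68 to 35.9%) and 4 of the 48 without (8.33%, 3.29 to 19.6%). The Sp1 motif GGGCGG was in 31 of 72 (43.1%), close to the 43.7% of all coding genes and below the 76.7% of CpG-rich ones, with it in 50% of genes with a summit and 39.6% of those without, whose intervals overlap.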

How the data were processed

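The authors aligned single-end reads to NCBIM37 (mm9), kept uniquely mapped reads without duplicates and called peaks with MACS2 on the merged Pax7 ChIP libraries against merged Input. The deposited list gives per peak a fold enrichment (a ratio of ChIP to local background), a −log10 q, a score that is 10 times the −log10 q without decimals, and the summit offset. These 4 samples are 1 condition, and no test was made.

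Summits, the peak start plus the offset, were counted around the 5′ end of GENCODE vM1 genes. A UTR, exon or intron was assigned by the summit base. Motifs were searched on both strands. Members, lists and the rule for named genes were chosen with earlier results of these data known. Named were the promoter peaks, the 10 distal peaks with the highest fold enrichment, the 5 genes with most distal peaks (8 tied), peaks at the limits, symbols ending in l, and the leading genes of the other lists. Distal peaks with the member as nearest gene, genes of several counts and gains from other TSSs were named after their values were seen. 50-base words were taken every 10 bases and sought on both strands of the genome. Counting was tested on simulated data. The alternatives were other distances, thresholds, TSSs, names, motif windows and comparison genes. The tools were matplotlib 3.10.9, numba 0.67.0, numpy 2.4.6, pandas 2.3.3, pysam 0.24.0, scipy 1.17.1 and Python 3.11.15. Chromosome X was left out of the main counts. A few genes are counted but not reported by name here.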

Additional observations from a re-analysis of the deposited data

How the results depend on the processing

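The counts were repeated under 43 alternatives over 6 results, of which 30 were counted as leaving the value unchanged, 11 moved it and 2 turned its direction. For shares and the difference in shares, unchanged meant within the counting interval of the main share. For the difference in means, it meant within a fixed ratio of the main value, which is a convention and not a measured spread. With peaks of at least 5-fold enrichment, 16.7% of ribosomal protein genes had a promoter summit. This was 10.5 percentage points above all coding genes (21.2 points with all peaks). The share with a distal summit was then 45.8%, against 35.7% of all coding genes. The difference in mean distal summits was 0.169 (0.292 with all peaks). At 1 to 25 kb the distal share was 41.7%, against 33.0% of all coding genes, and the difference in means 0.126. At 1 to 100 kb the share was 91.7%, against 72.0% of all coding genes. Credited to the nearest coding TSS only, the share was 13.9%, against 25.7% of all coding genes, and the difference -0.242. Without summits within 1 kb of another coding TSS, the share was 44.4%, against 43.8% of all coding genes, and the difference -0.00742. Against CpG-rich genes the difference in means was 0.0821, and that in the promoter share was 13.0 points, which the rule counted as unchanged. A window of 25 bp left the paired-box core in 3.70% of the promoter peaks of ribosomal protein genes (1 of 27). This was below the 13.2% of all promoter peaks and the 7.24% of all peaks. Each of these alternatives takes other peaks, bases or genes by construction, and no other cause was tested. No paired analysis was possible because the authors called peaks once on merged libraries, and for the same reason no replicate could be left out. The list has no read counts, so what depth hides at genes without a summit is unknown.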
